A study of Mus musculus with 15 samples.

Results

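The genes described here are the components of the WNT pathway in mouse lung: 14 WNT ligands, 12 Frizzled and LRP receptors, 5 R-spondins and LGR receptors, 8 secreted inhibitors and 7 target, feedback or nuclear genes, 46 in all. They were chosen by membership in the pathway, with earlier results of these data known. A gene was represented by a probe set that names it alone, and where there were several, by the one with the highest mean log2(intensity + 16) over all arrays. This gave values for 45 of the 46, among 18193 genes measured in all. Tcf7 was not analysed here.

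WNT proteins are secreted, lipid-modified ligands that bind Frizzled receptors. With LRP5 or LRP6 as coreceptor they stop the destruction of beta-catenin, which then acts with TCF and LEF factors in the nucleus, while other WNT signals act on cell shape and polarity without beta-catenin. R-spondins, bound by LGR receptors, keep the ubiquitin ligases ZNRF3 and RNF43 from removing Frizzled receptors, SFRP and WIF1 proteins bind the ligands, and DKK1 and DKK2 bind the LRP coreceptors. In the lung the pathway is known for its part in branching during development and in the upkeep and repair of the alveolar and airway epithelium.

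RNA was measured on 15 single-colour Affymetrix arrays in 5 groups of 3. The older set compared 3 lungs of wild type mice with 3 lung tumours at 12 months, each a piece of a tumour of a single mouse. The younger set compared 3 wild type lungs with lungs of 2 mutant genotypes at 7 months, which the series places before tumours begin. All mutant mice carried a first deletion in common. The 3 lungs called single mutant here had this deletion alone, and the 3 lungs called double mutant, as well as the tumours, also carried Smad4d/d, the deletion of the shared partner of the SMAD proteins of TGF-beta and BMP signalling. All mice were of mixed background, on normal feed and without treatment, and the lung samples were pieces of whole lung. The labels do not say in which cells the deletions took place. An animal number is given for every 12-month array except 1 tumour, and the 7-month arrays carry only replicate numbers. The p-values there measure the spread between these samples, which may be technical.

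The lung markers Sftpc and Scgb1a1 were bright on every array, with group means from 11700 to 12400 for Sftpc and from 14740 to 15950 for Scgb1a1. Array medians lay between 90.9 and 99.5, and arrays of 1 group correlated at 0.982 to 0.9957 over probe sets. The 18S ribosomal control read 1121 to 2036 in the tumours, 5492 to 6933 in wild type lungs of 12 months and 6556 to 8084 at 7 months. Of the 12-month arrays, wild type arrays 1 and 3 had Xist signal and no Y-linked signal, and wild type array 2 and the 3 tumours the reverse. At 7 months 8 of the 9 arrays had both at once, and wild type array 3 had Y-linked signal alone. Whether a 7-month array holds RNA of 1 animal or of several is not stated in the labels. Smad4, with a mean of 2819 ± 137 (SD, n = 3) in wild type lung and 3303 ± 364 in tumours at 12 months, and of 3220 ± 73.7 in wild type and 3292 ± 109 in double mutant lungs at 7 months, was not called in any comparison. The position of its probe sets relative to the deletion is unknown, so these values check nothing about the genotypes.

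Values are linear intensities, and tests are limma fits on log2(intensity + 16) with Benjamini-Hochberg adjustment over all 18193 genes. Where further probe sets of a gene are given, their adjusted p comes from a separate limma fit of all probe sets that name 1 gene. It is adjusted over those probe sets, so it does not compare directly with the adjusted p of a gene. A gene is said to have risen, fallen or been called where its adjusted p was under 0.05, and a fold change is 2 to the power of a log2 change with this offset of 16, so that changes of dim genes are understated. In the tumours 10 of the 45 WNT genes rose and 3 fell against wild type of 12 months, against a background of 9.23% of all genes called higher and 6.02% lower. In single mutant lungs 7 rose and 1 fell (background 9.79% and 5.4%). In double mutant lungs 6 rose and 1 fell (background 6.42% and 1.39%). The share of WNT genes called in either direction was 28.9% in tumours, 17.8% in single mutant and 15.6% in double mutant lungs, beside 15.2%, 15.2% and 7.81% of all genes. Both 7-month comparisons use the same 3 wild type arrays. Groups of 3 that do not overlap were common among all genes. In tumours 20.5% of all genes lay above wild type without overlap and 17% below, beside 16 and 6 of the 45. In single mutant lungs these were 20% and 15.6% (12 and 6 of the 45), and in double mutant lungs 15.2% and 10.9% (8 and 3). In double against single mutant lungs they were 14.4% and 14.2% (5 and 9). The median log2 change of the 45 genes was 0.13 in tumours, 0.08 in single mutant and -0.05 in double mutant lungs, and that of all genes was between 0.006 and 0.016. A call was made for 18 of the 45 genes in at least 1 comparison and for 27 in none. With 3 arrays a group these counts moved when 1 array was left out: the tumour counts ran from 2 higher (without wild type array 3) to 11 higher (tumour array 2 left out, which also gave 5 lower), and no WNT gene was called lower, 0 of 45, when tumour array 1 or 3 or wild type array 1 was dropped. In the same fits the calls over all genes also moved, to 622 higher and 220 lower without wild type array 3 and to 1900 higher and 1426 lower without tumour array 2, against 1679 and 1095 with all arrays. In single mutant lungs they ran from 4 to 7 higher, with 4 without single mutant array 2 or 3, and in double mutant lungs from 3 to 5 higher, with 3 without double mutant array 2 or wild type array 1 or 2.

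**Figure D1:**
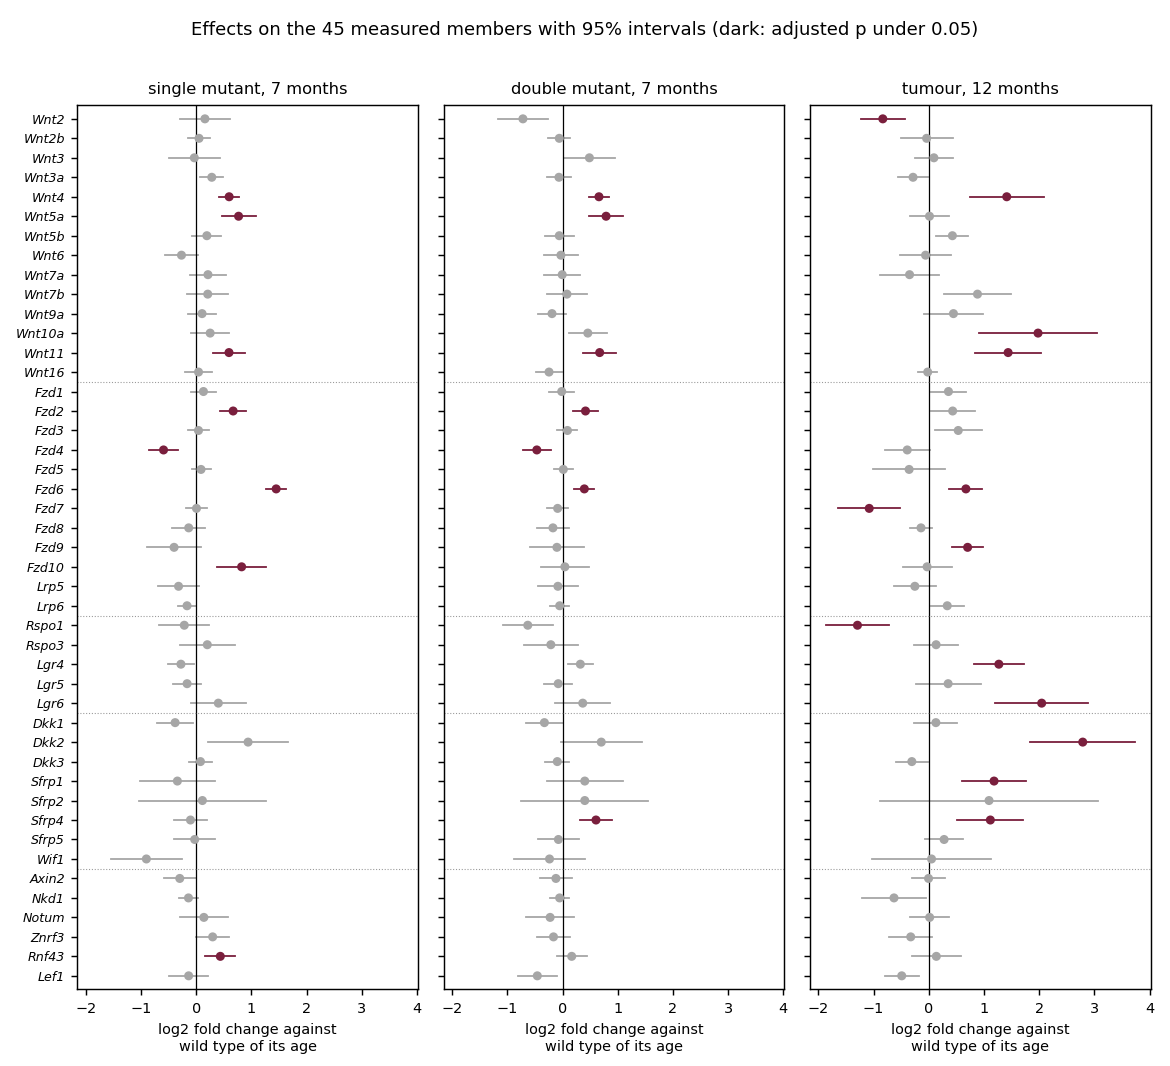
Log2 fold change against wild type of the same age (x axis) of each of the 45 measured WNT genes (y axis, in classes separated by dotted lines: ligands, receptors, R-spondins and LGR receptors, secreted inhibitors, and target, feedback or nuclear genes), with 95% intervals from the limma fit and 3 arrays in each group. Dark points have an adjusted p under 0.05: 8 in single mutant lungs, 7 in double mutant lungs and 13 in tumours, with Dkk2 in tumours farthest from 0 at 2.79.

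Other cell types moved with the same comparisons. Of 10 ciliated cell markers all rose in each of the 3 mutant groups, and their summed intensity was 4018 to 4114 in wild type, 8441 to 9294 in single mutant and 7886 to 9747 in double mutant lungs, and 5782 to 7679 in wild type lungs and 13580 to 21170 in tumours at 12 months. Of 7 basal and squamous cell markers 5 rose in tumours (sum 182 to 213 in wild type, 2484 to 6132 in tumours), 2 in double mutant lungs, Krt15 and Trp63, and 0 in single mutant lungs (sums 345 to 382 in wild type, 356 to 395 in single mutant, 542 to 1042 in double mutant). Of 9 endothelial markers 5 fell in tumours (sum 15800 to 17980 in wild type, 7381 to 11500 in tumours) and 3 in each mutant group at 7 months (25680 to 26010 in wild type, 21500 to 22540 in single mutant, 18340 to 22180 in double mutant). Of 6 macrophage markers 3 fell in tumours (12040 to 15850 in wild type, 4504 to 6241 in tumours) and 0 at 7 months. Of 8 fibroblast markers Lum and Dcn rose and Tcf21 and Pdgfra fell in tumours (sum 21340 to 25920 in wild type, 24820 to 36540 in tumours), and of 8 alveolar type 1 markers Spock2 and Cav1 fell there (33220 to 36630 and 20030 to 30970). At 7 months 2 alveolar type 1 markers, Akap5 and Spock2, fell in double mutant lungs and 0 in single mutant lungs. The fibroblast marker Pdgfra fell in single mutant lungs, and 0 of the 8 were called in double mutant lungs. Of 6 club cell markers 3 rose in tumours and 4 in each mutant group at 7 months. Of 6 alveolar type 2 markers 0 were called in tumours, Lpcat1 and Abca3 rose and Sftpb fell in single mutant lungs, and Lpcat1 rose in double mutant lungs. Of 6 smooth muscle markers 0 were called in tumours, Tagln and Des fell in single mutant and Smtn in double mutant lungs. No marker of these lists had a group mean of 0, and the lowest was Krt14 at 6.44 in wild type lungs of 12 months. In double against single mutant lungs Krt15 and Pdgfra were called higher and Akap5 lower, and no other marker. For the tumour effect minus the double mutant effect of 7 months, 5 of 7 basal and squamous markers were called higher (median log2 difference 1.79). Smtn, Tagln, Dcn and the mesothelial marker Msln were also higher there, and Tie1 and Adgre1 lower. Of the ciliated, club and alveolar markers 0 were called there. The part of these cells in the results below was not tested. In whole tissue, fewer cells of a type and less RNA per cell cannot be told apart.

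Among the 14 ligands, Wnt4 and Wnt11 rose in all 3 mutant groups, Wnt5a rose in both mutant groups at 7 months, Wnt10a rose in the tumours and Wnt2 fell in the tumours. The counts were 3 higher and 1 lower in tumours, and 3 higher and 0 lower in each of the mutant groups at 7 months, with a median log2 change over the class of 0.05, 0.20 and -0.02. Wnt4 and Wnt11 moved together across the groups, so their promoter windows, from 250 bases before to 50 bases after the gene start (RefSeq, GRCm38.p6, both on the + strand), are shown here. Capitals mark a match to the TCF/LEF motif, CTTTGAT or CTTTGTT on either strand.
Wnt4, chr4:137277385-137277684: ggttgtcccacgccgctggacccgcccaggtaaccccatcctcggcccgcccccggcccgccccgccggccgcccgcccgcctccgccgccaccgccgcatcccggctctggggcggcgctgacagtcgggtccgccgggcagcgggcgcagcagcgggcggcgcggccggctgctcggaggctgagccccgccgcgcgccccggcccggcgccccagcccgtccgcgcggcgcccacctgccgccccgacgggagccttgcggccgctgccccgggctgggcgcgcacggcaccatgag
Wnt11, chr7:98834862-98835161: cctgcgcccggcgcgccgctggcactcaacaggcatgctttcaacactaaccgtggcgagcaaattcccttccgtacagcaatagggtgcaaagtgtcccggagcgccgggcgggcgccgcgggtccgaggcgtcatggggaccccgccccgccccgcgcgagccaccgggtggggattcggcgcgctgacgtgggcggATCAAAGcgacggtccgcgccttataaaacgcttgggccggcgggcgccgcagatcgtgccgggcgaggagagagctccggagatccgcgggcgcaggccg
Wnt11, its other listed start, chr7:98838595-98838894: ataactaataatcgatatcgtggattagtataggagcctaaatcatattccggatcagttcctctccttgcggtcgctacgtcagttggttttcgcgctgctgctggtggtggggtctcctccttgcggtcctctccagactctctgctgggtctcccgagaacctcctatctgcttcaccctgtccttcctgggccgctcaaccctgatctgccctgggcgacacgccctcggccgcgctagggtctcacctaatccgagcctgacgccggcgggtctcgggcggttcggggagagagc
The first Wnt11 window holds ATCAAAG, the reverse complement of CTTTGAT, 51 bases before the gene start. The Wnt4 window and the other Wnt11 window hold no match. Of all 32851 promoter windows 9.33% hold this motif, and of the 36 windows found for 29 of the 45 WNT genes, 5 (13.9%), those of Dkk1, Fzd7, Wnt11, Wnt3 and Wnt5b. The SMAD palindrome GTCTAGAC is in 0.213% of all windows and in 0 of these 36. GC content is 84.3% in the Wnt4 window and 71.3% and 59.3% in those of Wnt11, beside a median of 52.7% over all windows.

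Wnt4, a ligand known from kidney and reproductive tract development (probe set 1450782_at), read 183, 227 and 184 in wild type lungs of 12 months and 628, 351 and 757 in tumours. In lungs of 7 months it read 251, 239.6 and 226 in wild type, 349, 357 and 403 in single mutant and 404, 388 and 369 in double mutant lungs. Every mutant array lay above every wild type array of its age, and the tumours spread more widely than the 7-month lungs. The rise was 2.66-fold in tumours (log2 change 1.41 ± 0.28 SE, adjusted p = 0.0238), 1.51-fold in single mutant (log2 change 0.60 ± 0.08 SE, adjusted p = 0.00144) and 1.58-fold in double mutant lungs (log2 change 0.66 ± 0.08 SE, adjusted p = 0.00111). The 7-month calls held without any 1 array and were lost in 1 model of all 15 arrays (adjusted p = 0.0761 in single and 0.0845 in double mutant lungs). The tumour call was lost without tumour array 1 or 3 or any 1 of the wild type arrays 1, 2 and 3, with adjusted p up to 0.0855 and log2 changes of 1.19 to 1.73 over the arrays left out. A further Wnt4 probe set rose in tumours (log2 change 1.38 ± 0.30 SE, adjusted p = 0.0353) and was not called at 7 months, with log2 changes of 0.14 in single and 0.28 in double mutant lungs.

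Wnt11, known from cell movements in the embryo and ureteric branching (probe set 1450772_at), read 187, 273 and 187 in wild type lungs and 663, 428 and 768 in tumours at 12 months. It read 254, 206 and 272 in wild type, 357, 393 and 373 in single mutant and 393, 465 and 340.1 in double mutant lungs at 7 months. As for Wnt4, no mutant array overlapped wild type of its age. It rose 2.71-fold in tumours (log2 change 1.44 ± 0.25 SE, adjusted p = 0.0173), 1.51-fold in single mutant (log2 change 0.59 ± 0.13 SE, adjusted p = 0.0166) and 1.59-fold in double mutant lungs (log2 change 0.67 ± 0.13 SE, adjusted p = 0.0149). The tumour call was lost without tumour array 1 or 3 or wild type array 1 or 3 (adjusted p up to 0.0681, log2 changes 1.27 to 1.68 over the arrays left out). The single mutant call was lost without single mutant array 2 or 3 (adjusted p up to 0.0621, log2 changes 0.48 to 0.67), and the double mutant call held without any 1 array. Both 7-month calls were lost in 1 model of all 15 arrays (adjusted p = 0.0762 and 0.0772), and the double mutant call also with only the groups compared (adjusted p = 0.0635). The effect in tumours was not shown to differ from that in double mutant lungs for Wnt11 (difference 0.76 ± 0.28 SE, adjusted p = 0.163) or for Wnt4 (0.75 ± 0.28 SE, adjusted p = 0.172).

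Wnt5a, a ligand of the branch without beta-catenin that shapes distal lung in development (probe set 1436791_at), read 178, 166 and 241 in wild type, 359, 341 and 319 in single mutant and 368, 364 and 305 in double mutant lungs at 7 months. It read 277, 195 and 266 in wild type lungs and 269, 230.3 and 239 in tumours at 12 months. All mutant values at 7 months exceeded all wild type values, and at 12 months the groups overlapped. It rose 1.7-fold in single mutant (log2 change 0.77 ± 0.13 SE, adjusted p = 0.00639) and 1.73-fold in double mutant lungs (log2 change 0.79 ± 0.13 SE, adjusted p = 0.00858), and both calls held without any 1 array. Its log2 change in tumours was 0.01 (adjusted p = 0.968), and the difference from the effect in double mutant lungs was -0.78 (adjusted p = 0.0625). Of its 3 further probe sets, 1 rose in both mutant groups at 7 months (log2 changes 0.69 and 0.82) and the other two were not called.

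Wnt10a, known from teeth, hair and other skin appendages (probe set 1460657_at), read 29.1, 11.6 and 14.7 in wild type lungs and 129, 53.8 and 215 in tumours at 12 months. At 7 months it stayed dim on all 9 arrays, at 6.20, 8.69 and 6.19 in wild type, 10.7, 10.6 and 13.0 in single mutant and 11.0, 12.1 and 25.5 in double mutant lungs. The 3 tumours were above all other arrays and varied widely among themselves. It was 3.94-fold higher in tumours (log2 change 1.98 ± 0.44 SE, adjusted p = 0.0338), a call lost without tumour array 1 or 3 or any 1 of the wild type arrays 1, 2 and 3 (adjusted p up to 0.106, log2 changes 1.58 to 2.44). The difference between the effect in tumours and in double mutant lungs was 1.52 (adjusted p = 0.1).

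Wnt2, a ligand of lung mesenchyme that helps to specify the lung in the embryo (probe set 1449425_at), read 156, 153 and 116 in wild type lungs and 56.6, 84.7 and 76.2 in tumours at 12 months. The 7-month arrays read 253, 335 and 335 in wild type, 333, 356 and 337 in single mutant and 151, 259.9 and 145 in double mutant lungs. All tumours were below all wild type arrays of 12 months, and double mutant array 2 alone reached into the range of wild type at 7 months. It fell 1.78-fold in tumours (log2 change -0.83 ± 0.16 SE, adjusted p = 0.0239), a call lost without tumour array 1 or 3 or wild type array 1 or 2 (adjusted p up to 0.0811, log2 changes -0.96 to -0.70) and lost against wild type array 2 alone, the one that shares the Y-linked signal of the tumours (log2 change -0.94, adjusted p = 0.0541). The change in double mutant lungs was -0.72 (adjusted p = 0.0691), called lower with an offset of 64, without dim genes or with a trended, robust prior, and the difference from the effect in tumours was -0.12 (adjusted p = 0.874).

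The other 9 ligands, Wnt2b, Wnt3, Wnt3a, Wnt5b, Wnt6, Wnt7a, Wnt7b, Wnt9a and Wnt16, were called in no comparison. Their log2 changes ran from -0.35 for Wnt7a to 0.88 for Wnt7b in tumours, from -0.27 for Wnt6 to 0.28 for Wnt3a in single mutant lungs and from -0.24 for Wnt16 to 0.49 for Wnt3 in double mutant lungs. Wnt7b, a ligand of lung epithelium, was above wild type in all 3 tumours (103, 108 and 169 in wild type and 299, 173 and 271 in tumours, adjusted p = 0.0654). Of these 9, Wnt2b, Wnt3, Wnt6, Wnt7a and Wnt16 had a mean under 64 in every group, and Wnt16 under 16 in every group.

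**Figure D2:**
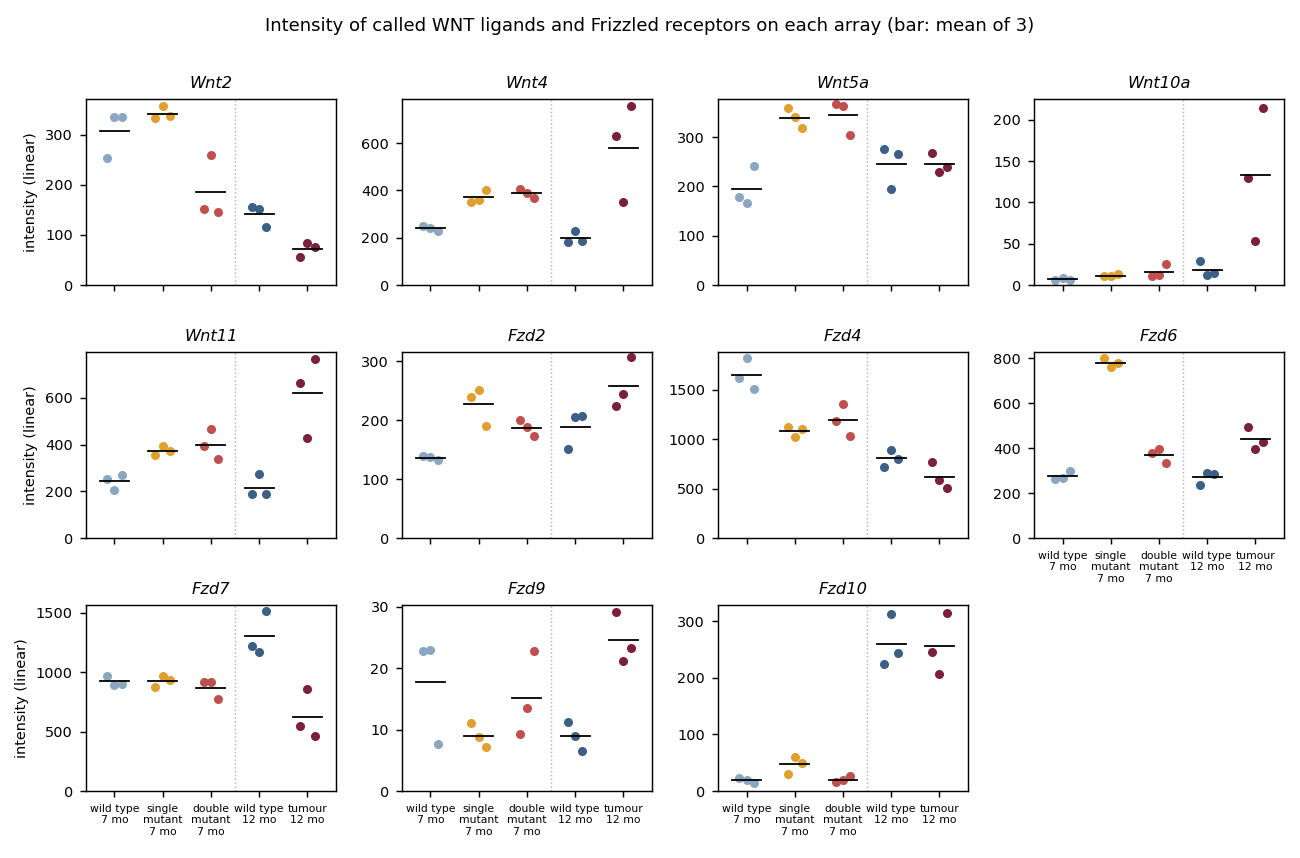
Linear intensity (y axis, from 0 in each panel) of the 5 ligands and 6 Frizzled receptors called in any comparison on each of the 15 arrays, by group (x axis); points are arrays, bars are means of 3, and a dotted line separates the ages. Wnt4 and Wnt11 lie above wild type on every mutant array, and Fzd6 lies at 763 to 801 in single mutant lungs and at 496 or below everywhere else.

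Among the 12 receptors, Fzd6 rose in all 3 mutant groups and most in single mutant lungs, Fzd2 rose and Fzd4 fell in both mutant groups at 7 months, Fzd10 rose in single mutant lungs, and Fzd9 rose and Fzd7 fell in the tumours. The counts were 2 higher and 1 lower in tumours, 3 higher and 1 lower in single mutant, and 2 higher and 1 lower in double mutant lungs, with median log2 changes over the class of 0.15, 0.02 and -0.03.

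Fzd6, a receptor that helps to set planar polarity in skin and hair (probe set 1417301_at), read 263, 267 and 299 in wild type, 801, 763 and 779 in single mutant and 377, 395 and 335 in double mutant lungs at 7 months. At 12 months it read 236, 289 and 287 in wild type lungs and 496, 396 and 429.7 in tumours. The 3 genotypes at 7 months did not overlap, with the double mutant lungs between the other two, and the tumours were above wild type. It rose 2.73-fold in single mutant (log2 change 1.45 ± 0.08 SE, adjusted p = 4.12e-05), 1.31-fold in double mutant lungs (log2 change 0.40 ± 0.08 SE, adjusted p = 0.0196) and 1.59-fold in tumours (log2 change 0.67 ± 0.12 SE, adjusted p = 0.02). Set against single mutant lungs it was 2.08-fold lower in double mutant lungs (log2 change -1.05 ± 0.08 SE, adjusted p = 0.000902). The single mutant rise and the difference between the mutant genotypes held without any 1 array. The double mutant rise was lost without double mutant array 1 or 2 or wild type array 1 or 2 (adjusted p up to 0.0692, log2 changes 0.35 to 0.46), and the tumour rise without tumour array 1 or 3 or any 1 of the wild type arrays 1, 2 and 3 (adjusted p up to 0.0622, log2 changes 0.58 to 0.74). A dimmer probe set of Fzd6, with a mean of 26.7, also rose in single mutant lungs (0.84 ± 0.12 SE, adjusted p = 0.00236) and was lower in double than in single mutant lungs (-0.82 ± 0.12 SE, adjusted p = 0.0125), but was not called in double mutant lungs (0.02) or tumours (0.01). With the mean of all Fzd6 probe sets the double mutant and tumour calls were lost (log2 changes 0.13 and 0.18, adjusted p = 0.424 and 0.166).

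Fzd2, a receptor that can bind Wnt5a (probe set 1418534_at), read 139, 137 and 133 in wild type, 240.0, 251 and 191 in single mutant and 201, 188 and 173 in double mutant lungs at 7 months. It read 151, 205 and 207 in wild type lungs and 224, 245 and 307 in tumours at 12 months. Both mutant groups were above wild type at 7 months and overlapped each other. The rise was 1.59-fold in single mutant lungs (log2 change 0.67 ± 0.10 SE, adjusted p = 0.00332), which held without any 1 array, and 1.33-fold in double mutant lungs (log2 change 0.42 ± 0.10 SE, adjusted p = 0.0436). This last call was lost without any 1 of the 6 arrays compared (adjusted p 0.06 to 0.118, log2 changes 0.37 to 0.47). The other Fzd2 probe sets did not differ there, with log2 changes of 0.001 and 0.002. In single mutant lungs they were not called either, with log2 changes of 0.41 (adjusted p = 0.0691) and 0.56 (adjusted p = 0.0628). For the chosen probe set the log2 change in tumours was 0.43 (adjusted p = 0.134).

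Fzd4, a receptor of vascular endothelium that also binds Norrin (probe set 1434756_at), read 1614, 1814 and 1506 in wild type, 1122, 1024 and 1101 in single mutant and 1185, 1359 and 1026 in double mutant lungs at 7 months. At 12 months it read 722, 894 and 801 in wild type lungs and 764, 585 and 503 in tumours. Every mutant array of 7 months was below every wild type array of that age, and at 12 months tumour array 1 overlapped wild type. It fell 1.51-fold in single mutant (log2 change -0.59 ± 0.11 SE, adjusted p = 0.00891) and 1.38-fold in double mutant lungs (log2 change -0.47 ± 0.11 SE, adjusted p = 0.04). The first held without any 1 array, and the other was lost without double mutant array 1 or 3 or wild type array 1 or 2 (adjusted p up to 0.101, log2 changes -0.57 to -0.37). The double mutant call was also lost with an offset of 1, array weights, 1 model of all 15 arrays, only the groups compared or a replicate block (adjusted p up to 0.115). All 3 Fzd4 probe sets fell in single mutant lungs. The log2 change in tumours was -0.39 (adjusted p = 0.177). Endothelial markers fell beside it: of the 9, Pecam1, Gpihbp1 and Erg were called lower in both mutant groups at 7 months. Their part in the fall of Fzd4 was not tested.

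Fzd7, a receptor known from stem cells of gut and embryo (probe set 1450044_at), read 1219, 1168 and 1511 in wild type lungs and 548, 853 and 466 in tumours at 12 months. In the younger set it read 967, 895 and 900.0 in wild type, 870.5, 966 and 933 in single mutant and 915, 914 and 771 in double mutant lungs. The tumours were below all wild type arrays of 12 months, and the groups of 7 months overlapped. It fell 2.11-fold in tumours (log2 change -1.08 ± 0.23 SE, adjusted p = 0.0307), and in double mutant lungs the log2 change was -0.09 (adjusted p = 0.588). The difference between these effects was -0.99 ± 0.24 SE (adjusted p = 0.0486). The fall was lost without tumour array 1 or 3 or any 1 of the wild type arrays 1, 2 and 3 (adjusted p up to 0.0998, log2 changes -1.33 to -0.90). The difference between effects was called without tumour array 2 and lost without any 1 of the other 11 arrays (adjusted p up to 0.114, log2 differences -1.24 to -0.81). This difference was also lost with an offset of 1 (-1.01, adjusted p = 0.0713) and with the mean of both Fzd7 probe sets (-0.62, adjusted p = 0.0581). The other probe set, with a mean of 15.9, was not called for this difference (-0.24, adjusted p = 0.713) or in tumours (-0.16, adjusted p = 0.662). In the limma fit of all probe sets, the chosen one was not called for this difference either (adjusted p = 0.0539). The promoter window of Fzd7 is shown because Fzd7 is the receptor called for the difference between effects with all arrays. The TCF/LEF match AACAAAG, the reverse complement of CTTTGTT, is in capitals 130 bases before the gene start (+ strand).
Fzd7, chr1:59481897-59482196: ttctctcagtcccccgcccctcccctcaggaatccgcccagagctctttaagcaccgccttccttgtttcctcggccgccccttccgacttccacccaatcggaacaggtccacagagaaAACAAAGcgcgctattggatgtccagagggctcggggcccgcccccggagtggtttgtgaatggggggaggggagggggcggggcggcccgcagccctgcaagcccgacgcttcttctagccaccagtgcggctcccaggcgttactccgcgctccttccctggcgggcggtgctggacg
The 9.33% of all windows that hold this motif stand beside this match, which is a description of the letters and not a measured site.

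Fzd10 (probe set 1455689_at) read 23.8, 19.7 and 13.9 in wild type, 30.9, 60.0 and 50.01 in single mutant and 15.4, 18.9 and 26.4 in double mutant lungs at 7 months. At 12 months it read 224, 313 and 244 in wild type lungs and 246, 207 and 314 in tumours. The single mutant lungs were above wild type of 7 months, and all 12-month arrays were far above all 7-month arrays. It rose 1.77-fold in single mutant lungs (log2 change 0.82 ± 0.19 SE, adjusted p = 0.0231), a call lost without single mutant array 2 or 3 or wild type array 3 (adjusted p up to 0.0794, log2 changes 0.67 to 1.02). The call was also lost with the mean of all Fzd10 probe sets and with array weights. A further Fzd10 probe set, with a mean of 6.48, was not called there (log2 change 0.03, adjusted p = 0.94). The double mutant lungs did not differ from the single mutant lungs by the test (log2 difference -0.78, adjusted p = 0.089).

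Fzd9 (probe set 1427529_at) was dim throughout, at 11.2, 9.05 and 6.48 in wild type lungs and 29.2, 21.2 and 23.3 in tumours at 12 months. At 7 months it read 22.8, 22.9 and 7.70 in wild type, 11.1, 8.81 and 7.12 in single mutant and 9.27, 13.5 and 22.9 in double mutant lungs. Tumours were above wild type of 12 months, and tumour array 2 read less than wild type arrays 1 and 2 of 7 months. The rise in tumours was 1.63-fold (log2 change 0.70 ± 0.12 SE, adjusted p = 0.0148). It was lost without wild type array 2 or 3 (adjusted p up to 0.0556, log2 changes 0.62 to 0.77) and against wild type array 2 alone (log2 change 0.69, adjusted p = 0.142).

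Fzd1 (probe set 1437284_at), described as the receptor with the highest mean log2 value, was called in no comparison. It read 1464, 1378 and 1472 in wild type lungs and 1543, 1884 and 2156 in tumours at 12 months, and 1224, 1165 and 1172, then 1268, 1312 and 1319.9 and 1003, 1195 and 1352 in wild type, single mutant and double mutant lungs at 7 months. All tumours lay above wild type, and the double mutant lungs spanned the range of wild type. The log2 change in tumours was 0.36 (adjusted p = 0.129). The other 5 receptors without a call were Fzd3, Fzd5, Fzd8 and the coreceptors Lrp5 and Lrp6. A further Fzd3 probe set, with a mean of 121, rose in single mutant lungs (0.27 ± 0.07 SE, adjusted p = 0.0354) where the chosen one was not called. Over these 6 receptors the log2 changes ran from -0.36 for Fzd5 to 0.53 for Fzd3 in tumours, from -0.32 for Lrp5 to 0.13 for Fzd1 in single mutant lungs, and from -0.17 for Fzd8 to 0.09 for Fzd3 in double mutant lungs.

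Among the R-spondins and their receptors, Lgr4 and Lgr6 rose and Rspo1 fell in the tumours, and 0 of the 5 were called against wild type at 7 months, where 1 had an unadjusted p under 0.05 in single mutant and 2 in double mutant lungs. The median log2 change over the 5 was 0.35 in tumours, -0.17 in single mutant and -0.08 in double mutant lungs.

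Lgr4, a receptor for R-spondins (probe set 1433891_at), read 356, 399 and 312 in wild type lungs and 882, 689 and 1103 in tumours at 12 months. The 7-month arrays read 373, 292 and 386 in wild type, 294, 288 and 271 in single mutant and 443, 435 and 439 in double mutant lungs. Tumours were above all other arrays, and the double mutant lungs were above all other arrays of 7 months, while single mutant lungs overlapped wild type. It rose 2.41-fold in tumours (log2 change 1.27 ± 0.19 SE, adjusted p = 0.0116), which held without any 1 array. In double mutant lungs it was 1.52-fold higher than in single mutant lungs (log2 change 0.60 ± 0.10 SE, adjusted p = 0.0275), a call lost without any 1 of the 6 arrays compared (adjusted p 0.0679 to 0.101, log2 differences 0.57 to 0.62). Against wild type the log2 change was 0.32 in double mutant (adjusted p = 0.0943) and -0.28 in single mutant lungs (adjusted p = 0.105). The effect in tumours exceeded that in double mutant lungs by 0.95 ± 0.21 SE (adjusted p = 0.032). This difference was called without tumour array 2, wild type array 2 of 12 months or wild type array 2 of 7 months, and lost without any 1 of the other 9 arrays (adjusted p up to 0.0812, log2 differences 0.78 to 1.11). A further Lgr4 probe set with a mean of 11.1 showed none of these changes (log2 change 0.06 in tumours), and the mean over both probe sets lost the calls between genotypes and between ages (log2 differences 0.28 and 0.38, adjusted p = 0.436 and 0.4). The promoter window of Lgr4 is shown because Lgr4 was also called for the difference between effects with all arrays. The window holds no TCF/LEF match (+ strand, GC content 58.3%).
Lgr4, chr2:109917397-109917696: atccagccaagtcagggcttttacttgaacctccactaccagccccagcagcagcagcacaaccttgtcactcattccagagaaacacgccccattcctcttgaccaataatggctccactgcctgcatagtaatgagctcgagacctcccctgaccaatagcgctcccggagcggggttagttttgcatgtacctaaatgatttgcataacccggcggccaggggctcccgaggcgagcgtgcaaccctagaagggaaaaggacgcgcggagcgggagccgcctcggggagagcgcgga

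Lgr6, a further R-spondin receptor that marks stem cells of the hair follicle (probe set 1436218_at), read 128, 227 and 179 in wild type lungs and 549.7, 638 and 1279.5 in tumours at 12 months. It read 113, 76.4 and 145 in wild type, 151, 152 and 141 in single mutant and 149, 185 and 108 in double mutant lungs at 7 months. All tumours were above all other arrays, with tumour array 3 the highest, and the 7-month groups overlapped. It rose 4.13-fold in tumours (log2 change 2.04 ± 0.35 SE, adjusted p = 0.0166), a call lost without wild type array 1 or 3 (adjusted p up to 0.0619, log2 changes 1.68 to 2.28). The difference from the effect in double mutant lungs was 1.68 (adjusted p = 0.0542). The other Lgr6 probe set was not called in tumours (0.45 ± 0.16 SE, adjusted p = 0.133).

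Rspo1, a secreted amplifier of WNT signals (probe set 1449319_at), read 468, 360.4 and 462 in wild type lungs and 137, 244 and 133 in tumours at 12 months. In the younger set it read 386, 511 and 509 in wild type, 358, 413 and 426 in single mutant and 341, 358 and 209 in double mutant lungs. Tumours lay below wild type of 12 months and double mutant lungs below wild type of 7 months. It fell 2.45-fold in tumours (log2 change -1.29 ± 0.24 SE, adjusted p = 0.0203), and the change in double mutant lungs did not pass the test (log2 change -0.63, adjusted p = 0.0952). The fall was lost without tumour array 1 or 3 or wild type array 1 or 3 (adjusted p up to 0.0763, log2 changes -1.55 to -1.15) and against wild type array 2 alone (log2 change -1.06, adjusted p = 0.0565). Mesothelial markers, which include Upk3b and Wt1, fell at 7 months in 2 of 5 genes in single mutant and 3 of 5 in double mutant lungs (sums 3046 to 3389 in wild type, 2441 to 2810 in single mutant, 2465 to 2793 in double mutant). In tumours Lrrn4 fell and Msln rose (sums 1334 to 2481 in wild type, 2512 to 3549 in tumours). The sum was higher in tumours, but the median log2 change of the 5 markers there was -1.19. At 7 months this median was -0.355 in single mutant and -0.568 in double mutant lungs. Their part in the values of Rspo1 was not tested. Rspo3 and Lgr5, the remaining members of the class, had group means from 43.1 to 95.3 and were called in no comparison, with log2 changes in tumours of 0.13 and 0.35.

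Among the 8 secreted inhibitors, Dkk2, Sfrp1 and Sfrp4 rose in the tumours, Sfrp4 also rose in double mutant lungs, and 0 were called in single mutant lungs, where 3 had an unadjusted p under 0.05. The median log2 change over the class was 0.68 in tumours, -0.07 in single mutant and 0.16 in double mutant lungs.

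Dkk2, which binds the LRP coreceptors (probe set 1420512_at), read 9.96, 33.2 and 20.5 in wild type lungs and 143, 218 and 399 in tumours at 12 months. It read 12.1, 5.81 and 17.4 in wild type, 39.2, 42.1 and 29.0 in single mutant and 11.6, 27.6 and 57.4 in double mutant lungs at 7 months. All tumours were well above every other array, the single mutant lungs were above wild type, and the double mutant lungs overlapped wild type. It rose 6.91-fold in tumours (log2 change 2.79 ± 0.39 SE, adjusted p = 0.0107), and this held without any 1 array and under all alternatives run, with log2 changes from 1.82 to 3.54. At 7 months the log2 changes were 0.94 in single mutant (adjusted p = 0.0863) and 0.70 in double mutant lungs (adjusted p = 0.231). The effect in tumours minus that in double mutant lungs was 2.09 (adjusted p = 0.0559).

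Sfrp1, which binds WNT ligands outside the cell (probe set 1428136_at), read 433, 379 and 517 in wild type lungs and 774, 944 and 1443 in tumours at 12 months. In lungs of 7 months it read 385, 479 and 544 in wild type, 329, 369 and 394 in single mutant and 404, 550.5 and 1061 in double mutant lungs. Tumours were above wild type of their age, and double mutant array 3 stood well above the other arrays of 7 months. It rose 2.27-fold in tumours (log2 change 1.18 ± 0.24 SE, adjusted p = 0.0262), a call lost without any 1 of the wild type arrays 1, 2 and 3 (adjusted p up to 0.0874, log2 changes 0.93 to 1.38) and against wild type array 2 alone (log2 change 1.39, adjusted p = 0.0575). Of its 5 probe sets 3 rose in tumours, and the other two had log2 changes of 0.98 (adjusted p = 0.0502) and 0.96 (adjusted p = 0.0891).

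Sfrp4, of the same family (probe set 1451031_at), read 138, 119.7 and 160.1 in wild type lungs and 216, 429 and 346 in tumours at 12 months. It read 70.1, 82.0 and 93.8 in wild type, 76.4, 68.2 and 79.8 in single mutant and 110.5, 133 and 158 in double mutant lungs at 7 months. Tumours were above wild type, double mutant lungs were above both other groups of 7 months, and single mutant lungs overlapped wild type. The rise was 2.17-fold in tumours (log2 change 1.11 ± 0.25 SE, adjusted p = 0.0332) and 1.52-fold in double mutant lungs (log2 change 0.61 ± 0.13 SE, adjusted p = 0.0258), and double mutant lungs exceeded single mutant lungs 1.64-fold (log2 change 0.71 ± 0.13 SE, adjusted p = 0.038). The tumour call was lost without tumour array 2 or 3 or any 1 of the wild type arrays 1, 2 and 3 (adjusted p up to 0.105, log2 changes 0.91 to 1.38). Against wild type of 7 months the call was lost without double mutant array 2 or 3 or wild type array 1 or 2 (adjusted p up to 0.0814, log2 changes 0.49 to 0.72). Against single mutant lungs it was lost without double mutant array 2 or 3 or any 1 of the single mutant arrays 1, 2 and 3 (adjusted p up to 0.132, log2 differences 0.60 to 0.83). Of the 8 fibroblast markers Lum and Dcn rose and Tcf21 and Pdgfra fell in the same tumours. Tcf21 read 3665 to 4084 in wild type lungs and 1118 to 2167 in tumours. Lum read 292 to 413 in wild type lungs and 1301 to 3194 in tumours. At 7 months Lum read 210 to 254 in wild type and 268 to 638 in double mutant lungs. No fibroblast marker was called in double mutant lungs against wild type. Pdgfra was called lower in single mutant lungs than in wild type, and higher in double than in single mutant lungs. The part of the fibroblast markers in the rise of Sfrp4 was not tested.

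The other 5 inhibitors, Dkk1, Dkk3, Sfrp2, Sfrp5 and Wif1, were called in no comparison. Sfrp2 was brightest on array 3 of both 12-month groups, at 50.3, 36.4 and 308 in wild type lungs and 123, 137 and 494 in tumours. Wif1, which binds WNT ligands and is known from lung epithelium, read 545, 411 and 255 in wild type and 209, 209 and 180.3 in single mutant lungs, which did not overlap (log2 change -0.90, adjusted p = 0.0666). Sfrp5 was dim, and its further probe set, with a mean of 15.7, rose in tumours (1.03 ± 0.15 SE, adjusted p = 0.0142) where the chosen one was not called. That further probe set was also called higher for the tumour effect minus the double mutant effect of 7 months (0.97 ± 0.20 SE, adjusted p = 0.0238). Over the 5 genes the log2 changes ran from -0.31 to 1.09 in tumours, -0.90 to 0.11 in single mutant and -0.33 to 0.40 in double mutant lungs.

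**Figure D3:**
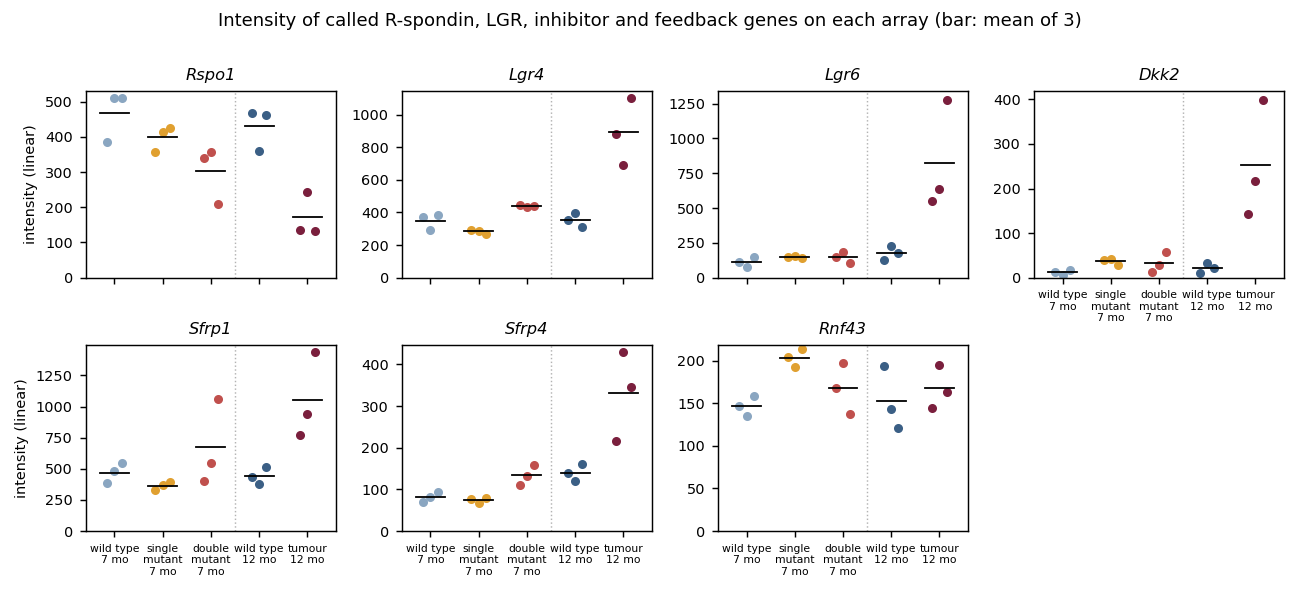
Linear intensity (y axis, from 0 in each panel) of the R-spondin, LGR, inhibitor and feedback genes called in any comparison on each of the 15 arrays, by group (x axis); points are arrays, bars are means of 3, and a dotted line separates the ages. Lgr4, Lgr6 and Dkk2 are higher in the 3 tumours than on any other array, and Rspo1 lies at 133 to 244 in tumours and at 360 or above in wild type lungs of 12 months.

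Of the 6 target, feedback and nuclear genes measured, 0 were called in the tumours and in double mutant lungs, where 2 and 1 had an unadjusted p under 0.05, and 1 was called in single mutant lungs. Their median log2 changes were -0.17, -0.14 and 0. Rnf43, a ubiquitin ligase that removes Frizzled receptors and is itself induced by beta-catenin (probe set 1427008_at), read 146, 135 and 158 in wild type, 204, 193 and 215 in single mutant and 168, 198 and 138 in double mutant lungs at 7 months. It read 194, 143 and 122 in wild type lungs and 145, 195 and 164 in tumours at 12 months. Single mutant lungs were above wild type, and the other groups overlapped their controls. Rnf43 rose 1.35-fold in single mutant lungs (log2 change 0.44 ± 0.12 SE, adjusted p = 0.0404), a call lost without any 1 of the 6 arrays compared (adjusted p 0.0608 to 0.125, log2 changes 0.39 to 0.49).

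Axin2, a scaffold of the destruction complex and a widely used target of beta-catenin, read 452, 436 and 450.1 in wild type lungs and 445, 521 and 378 in tumours at 12 months. At 7 months it read 370.2, 405 and 461 in wild type, 330.0, 335 and 327 in single mutant and 461, 334 and 346 in double mutant lungs. The tumours spread to both sides of the wild type values, and single mutant lungs lay below wild type. The 95% interval of its log2 change ran from -0.30 to 0.30 in tumours (adjusted p = 0.985), from -0.59 to -0.01 in single mutant (adjusted p = 0.156) and from -0.41 to 0.17 in double mutant lungs (adjusted p = 0.629). Nkd1, a feedback inhibitor that binds Dishevelled (probe set 1429506_at), is described as the member of its class with the highest mean log2 value. It read 739.8, 867 and 846 in wild type lungs and 486, 757 and 383 in tumours, and 1038, 969 and 1055, then 905, 940.2 and 925 and 1042, 1014 and 898 in wild type, single mutant and double mutant lungs of 7 months. Tumours 1 and 3 were below wild type and tumour 2 within its range, and the log2 change in tumours was -0.63 (adjusted p = 0.135). Lef1, a nuclear partner of beta-catenin, read 178, 190.1 and 151 in wild type lungs and 124, 131 and 101 in tumours, without overlap, and missed the threshold (log2 change -0.49, adjusted p = 0.051). It was called lower in tumours with quantile normalization, an offset of 64, array weights, without dim genes or in 1 model of all 15 arrays, and the last also called Nkd1 lower. Znrf3, the relative of Rnf43, had log2 changes of -0.33 in tumours, 0.30 in single mutant and -0.16 in double mutant lungs, and Notum, which inactivates WNT proteins, had a mean under 64 in every group.

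Double and single mutant lungs, which differ in Smad4d/d, were compared with each other for all 45 genes. Of these 2 were higher in double mutant lungs, Lgr4 and Sfrp4, and 1 was lower, Fzd6, beside 0.918% and 0.841% of all genes, 1.76% in either direction. The median log2 difference was -0.05 for the WNT genes and -0.002 for all genes. Among genes called in only 1 of the mutant groups against wild type, the difference between genotypes itself did not pass for Fzd10 or for Rnf43 (log2 difference -0.27, adjusted p = 0.279). Wnt2 showed no overlap between the genotypes, at 333 to 356 in single and 145 to 259.9 in double mutant lungs, and also missed the threshold (log2 difference -0.88, adjusted p = 0.0727), which it passed with an offset of 64, a trended, robust prior or array weights.

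The effect in tumours minus the effect in double mutant lungs of 7 months, each against wild type of its age, was called higher for Lgr4 and lower for Fzd7, beside 1.75% and 1.41% of all genes. Either direction was called for 3.17% of all genes. In the same contrast 5 of 7 basal and squamous cell markers were called higher, and their part was not tested. The older and younger sets differ in age, in the tissue taken and possibly in handling, and these cannot be told apart. With an offset of 64, without dim genes or with a trended, robust prior, Lgr6 and Dkk2 were also called higher and Wnt5a lower. The median of this difference was 0.24 over the 45 WNT genes and 0.003 over all genes.

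Wild type lungs of both ages were set side by side, with no test, since age and array set cannot be told apart. The values of the ages did not overlap for 16 of the 45 genes, 6 higher and 10 lower at 12 months, beside 30.5% and 18.2% of all genes. Fzd10 differed most, with means of 19.2 ± 4.96 (SD, n = 3) at 7 months and 260.3 ± 46.7 at 12 months. The ratio of these linear means, with 16 added to each, was 7.86. Fzd4 had means of 1645 ± 157 and 805.7 ± 85.7, Wnt2 of 308 ± 47.6 and 142 ± 22.1, Lrp5 of 78.9 and 37.3, and Dkk1 of 40.6 and 13.6.

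**Figure D4:**
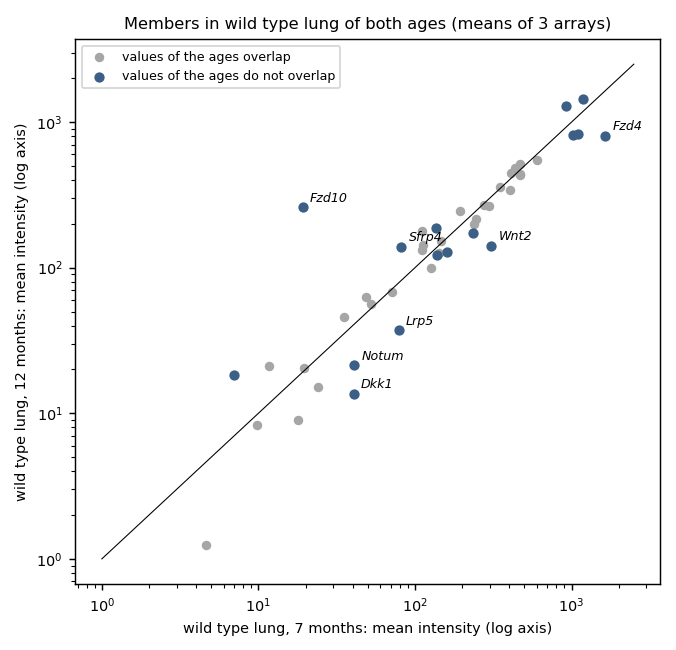
Mean intensity of 3 wild type arrays at 7 months (x axis, log scale) and at 12 months (y axis, log scale) of the 45 WNT genes; the line marks equal means and dark points are the 16 genes whose values at both ages do not overlap. Fzd10 lies farthest above the line, at 19.2 and 260.3.

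Of 94 other genes of the pathway, in 5 lists set out by role, 92 were measured. In tumours 10 rose and 6 fell, in single mutant lungs 14 rose and 6 fell, and in double mutant lungs 4 rose and 1 fell. In either direction these were 17.4%, 21.7% and 5.43% of the 92, beside 15.2%, 15.2% and 7.81% of all genes. Their median log2 changes were 0.02, -0.01 and 0.02. The destruction complex and Dishevelled genes, 18 in all, held 0 called in tumours and in double mutant lungs, and in single mutant lungs Dvl3 rose 1.48-fold and Dvl1 fell 1.2-fold.

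In the list of WNT secretion genes and further ligands and antagonists, 3 of 20 rose and 1 fell in tumours. Frzb, a secreted inhibitor of the SFRP family, rose 7.48-fold, from 14.4 to 221 (log2 change 2.90 ± 0.29 SE, adjusted p = 0.00573). Kremen1, a receptor for DKK proteins, rose 1.6-fold in tumours, 1.26-fold in single mutant and 1.33-fold in double mutant lungs. Gpc4 rose 1.42-fold, and Gpc3, a glypican of the cell surface, fell 2.62-fold in tumours and 1.26-fold in double mutant lungs. In single mutant lungs 5 of 20 rose and 1 fell. Porcn, the enzyme that attaches the lipid to WNT proteins, rose 1.66-fold (log2 change 0.73 ± 0.09 SE, adjusted p = 0.0013), and Wls, which carries WNT proteins to the cell surface, 1.29-fold (log2 change 0.37 ± 0.08 SE, adjusted p = 0.0186). Porcn was 1.45-fold lower in double than in single mutant lungs (log2 change -0.53 ± 0.09 SE, adjusted p = 0.031), and was the single gene of the 92 called between the genotypes.

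Of 19 genes of planar polarity and signalling without beta-catenin, Celsr1, a cadherin of planar polarity, rose in all 3 mutant groups, 2.24-fold in tumours (log2 change 1.16 ± 0.13 SE, adjusted p = 0.00633), 1.9-fold in single mutant (log2 change 0.93 ± 0.09 SE, adjusted p = 0.000335) and 1.92-fold in double mutant lungs (log2 change 0.94 ± 0.09 SE, adjusted p = 0.000393). Vangl2, another polarity gene, rose 1.31-fold in single and 1.36-fold in double mutant lungs, and its effect in tumours minus that in double mutant lungs was -0.71 on the log2 scale (adjusted p = 0.0105). Celsr2 rose 1.58-fold in tumours and fell 1.37-fold in single mutant lungs, and Prickle2 and Nfatc1 fell 2.15-fold and 1.47-fold in tumours. The 10 ciliated cell markers rose in the same 3 comparisons as Celsr1, and their part in its rise was not tested.

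Among 18 further reported target genes, Sox9 rose 3.52-fold in tumours (log2 change 1.82 ± 0.20 SE, adjusted p = 0.00669) and 2.21-fold in double mutant lungs (log2 change 1.14 ± 0.23 SE, adjusted p = 0.0195). Vcan and Ccn4 rose 3.22-fold and 2.5-fold in tumours. Sp5, a target of beta-catenin in many tissues, fell 2.24-fold (log2 change -1.16 ± 0.26 SE, adjusted p = 0.0335), and Tbx3 fell 2.45-fold. In single mutant lungs 0 of the 18 were called by limma. Of 17 nuclear factors Tle3 rose and Tcf7l2 fell in tumours, 5 rose and 3 fell in single mutant lungs, with the smallest adjusted p in each direction for Tcf7l1 (1.42-fold higher) and Hdac1 (1.22-fold lower), and 0 were called in double mutant lungs.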

How the data were processed

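The deposited table held 1 intensity for each of 45101 probe sets on each of 15 arrays, on a linear scale from 0.48 to 17030.07. Per the labels, 250 ng of total RNA was amplified and biotin-labelled with a 3' IVT kit. How the authors summarised and scaled these intensities is not stated here. From the platform annotation 34958 probe sets named 1 gene symbol, 932 several and 9211 none. Of the first, 34754 matched a RefSeq gene (GRCm38.p6) and 0 symbols changed.

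Tests used limma 3.58.1 in R 4.3.3 on log2(intensity + 16), with Benjamini-Hochberg adjustment over 18193 genes and a threshold of 0.05. Further probe sets of a gene were tested in separate fits of all probe sets that name 1 gene, adjusted over those probe sets. Tumours were tested on 6 arrays, the 7-month comparisons in 1 model of 9 arrays, and the difference of effects in 1 model of 15 arrays. The code was tested on simulated data. The genes described one by one are those called in any comparison, and the brightest of each class. From the further lists a part of the called genes is named, not strictly by smallest adjusted p. Among those left out above is Dkk4, higher in single mutant lungs (limma adjusted p = 0.015) and lower for the difference of effects (adjusted p = 0.0451). Vangl1, higher in tumours (adjusted p = 0.0186) and in single mutant lungs (adjusted p = 0.0256), is another. Axin2, Lef1, Wnt7b, Sfrp2, Wif1, Znrf3 and the uncalled genes at the ends of a range were named after their values were seen. The members and lists were chosen with earlier results of these data known. The number of arrays limits the precision. Alternatives covered normalization, offset, dim genes, probe sets, the fit, the wild type arrays used and each array left out. The gene deleted in all mutant groups is not reported here.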

Additional observations from a re-analysis of the deposited data

Results flagged for a closer look

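The effect of the double mutant genotype against wild type differed between tumours at 12 months and lungs at 7 months for 2 of the 45 WNT genes in the limma fit of all arrays (4.44%, beside 3.17% of all genes). For Fzd7 the difference of the log2 changes was -0.991 (adjusted p = 0.0486), from -1.08 in tumours and -0.09 in lungs. All 3 tumours were below all 3 wild type arrays, which held for 17% of all genes. For Lgr4 the difference was 0.946 (adjusted p = 0.032), from 1.27 in tumours and 0.32 in lungs. All 3 tumours and all 3 double mutant lungs were above wild type of their age. Taken singly, these held for 20.5% and 15.2% of all genes. Both calls were lost with the mean of all probe sets (adjusted p = 0.0581 for Fzd7 and 0.4 for Lgr4). With 1 array left out, Fzd7 was called in 1 of 12 fits and Lgr4 in 3 of 12. Age, tissue and array set differ together in this contrast, and their parts were not tested.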

How the results depend on the processing

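The 33 calls described one by one were recomputed under 586 alternative values in all: 441 kept the call, 145 lost it and 0 changed sign. The 8 calls kept in every alternative run were Dkk2 and Lgr4 in tumours, Wnt5a, Fzd2, Fzd4 and Fzd6 in single mutant lungs, Wnt5a in double mutant lungs, and Fzd6 between the mutant genotypes. The counts of WNT genes moved as follows, and the cause was not tested. In tumours, 1 model of all 15 arrays gave 16 higher and 6 lower, and the wild type array of the tumours' sex alone gave 9 higher and 1 lower. In single mutant lungs, the model of 15 arrays gave 4 higher, and leaving out dim genes (mean under 64 in every group) gave 2 lower. In double mutant lungs, the model of 15 arrays gave 2 higher and 0 lower, a fit of only the groups compared 3 and 0, and the count lower was 0 with an offset of 1 or array weights and 2 with an offset of 64, without dim genes or with a trended, robust prior. Between the mutant genotypes, the count higher was 1 with an offset of 1, with the mean of all probe sets or with only the groups compared and 0 in the model of 15 arrays, and the count lower was 2 with an offset of 64, a trended prior or only the groups compared and 3 with array weights. For the tumour effect minus the 7-month effect, the count higher was 3 with an offset of 64, without dim genes, with a trended prior or with array weights and 0 with the mean of all probe sets. The count lower there was 2 with an offset of 64, without dim genes or with a trended prior and 0 with an offset of 1 or the mean of all probe sets.

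Leaving out 1 array gave 2 to 11 higher and 0 to 5 lower in tumours, 4 to 7 and 1 to 2 in single mutant lungs, 3 to 5 and 0 to 2 in double mutant lungs, 0 to 1 and 1 to 2 between the mutant genotypes, and 0 to 8 and 0 to 3 for the difference of effects. The same fits gave, over all genes, 622 to 1900 higher and 220 to 1426 lower in tumours, 1192 to 1754 and 456 to 966 in single mutant lungs, 792 to 1037 and 116 to 180 in double mutant lungs, 42 to 108 and 57 to 121 between the genotypes, and 162 to 857 and 108 to 973 for the difference of effects. Among the alternatives that keep every array of the groups compared, the counts over all genes that moved by over 1.5 times were 2735 higher and 2191 lower in tumours (model of 15 arrays), 730 higher (only the groups compared) and 37 to 555 lower in double mutant lungs, 96 to 468 higher and 101 to 419 lower between the genotypes, and 164 to 425 lower for the difference of effects.

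The labels do not say whether the replicate numbers of the 7-month arrays pair the samples. In their deviations from the group means, same-numbered arrays correlated at -0.128 to 0.161. Differently numbered arrays correlated at -0.181 to 0.15, an overlapping range. Deviations of so few arrays from their own mean depend on each other, so these values cannot decide whether the samples are paired. With a replicate block the WNT genes gave 6 higher and 1 lower in single mutant lungs, 5 and 0 in double mutant lungs, and 1 and 1 between the genotypes. The block lost Rnf43 in single mutant lungs, Fzd4 and Fzd6 in double mutant lungs and Lgr4 between the genotypes, and 157 of all genes were lower in double mutant lungs.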
